A study of Canis lupus familiaris with 109 samples.

Results

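Among the 54327 human-named cytosine probes (names that begin with cg) in a table of dog blood methylation, 7109 had a middle level. The members were selected on measured values: the median of the probe over the 95 libraries of the table had to lie from 0.3 to 0.7 on the scale of that table. They made up 13.1% of the cg names. A further 24161 names (44.5%) had a median under 0.3 and 23057 (42.4%) a median over 0.7, so the middle is the least filled range.

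A methylation fraction is the share of sequenced DNA copies in which a cytosine is methylated. On a single DNA copy a cytosine is methylated or not, so a middle fraction in blood means a mixture of copies. The mixture can lie between cell types, between the maternal and the paternal copy at imprinted genes, between alleles of a sequence variant, or between copies with no fixed pattern. Probe names of this form come from human methylation arrays, and each stands for a place in the human genome that was carried over to the dog.

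All samples were DNA from whole blood of domestic dogs, treated with bisulfite and enriched by the SeqCap Epi capture protocol. Bisulfite lets unmethylated cytosines be read as thymine. The labels tie 94 samples to this table, with ages from 0.134 to 14.5 years (median 6.37). They also list 6 repeat captures and 1 sample used only for the analysis of repeat captures. That sample and a repeat capture are older than this range. Each repeat capture has the same age as another sample. The table has 95 rows with library codes such as L4_A7, none of which matches a sample title, so no library was given an age or a sex and no groups were compared. The study asks how dog and human methylomes change with age. That comparison is not made here, and values are given as ranges and medians over libraries. Read depth is unknown, since the tables hold no counts, and no interval for counting error is given. In whole blood, a change in the share of a cell type and a change within a cell type cannot be told apart.

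The edges of the selection were narrow. At the lower end cg08220261, cg10835286 and cg14131834 had medians of 0.30008, 0.30009 and 0.30030 and were members. Just below them, cg10631471 and cg07739205 both had 0.29993 and cg20003983 had 0.29954. At the upper end cg24151204 had 0.69993, and cg05289920 and cg19478410 both had 0.69997. Just above them, cg17807777 and cg14864302 both had 0.70011 and cg04363282 had 0.70023. Within the range, 2005 members had a median under 0.4, 1491 from 0.4 to 0.5, 1573 from 0.5 to 0.6 and 2040 of 0.6 or more.

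The values of this table are not methylation fractions as such. A second table of the series lists fractions at 304191 dog positions in the same 95 libraries, and 7073 of the 7109 members could be tied to positions in it. A member was tied when its value, taken back through a curve fitted to its library, matched the mean fraction of a run of neighbouring positions to within 0.02 in at least 90 libraries. The match held in all 95 libraries for 6907 members, and 36 members could not be tied. The values of the table thus followed the fractions through 1 rising curve per library. A fraction of 0 became a rescaled value of 0.0911 in the median library and a fraction of 1 became 0.913. A fraction of 0.5 became 0.519 in the median library, but only 0.366 in the library coded L4_A7.

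On the scale of fractions the members spread more widely than the range that selected them. Their median fractions ran from 0.145 to 0.78, with quartiles of 0.31 and 0.643 and a median of 0.5. Of the 7073 tied members, 4671 had a median fraction from 0.3 to 0.7. A further 1614 lay under 0.3 and 788 over 0.7. In the other direction, every one of the 4694 cg names whose recovered fraction had a median from 0.3 to 0.7 was a member. The range of 0.3 to 0.7 in the table therefore takes in all names at middle fractions and some that lie lower or higher.

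The curves differed between libraries, and the members carried that difference. In 6 libraries a fraction of 0.5 became a rescaled value from 0.366 to 0.421, and in the other 89 from 0.442 to 0.552. The mean rescaled value over the members ran from 0.378 to 0.414 in those 6 libraries and from 0.443 to 0.533 in the others, without overlap. The mean fraction over the same members ran from 0.446 to 0.498 in the 6 and from 0.447 to 0.512 in the others, so on that scale the libraries overlapped.

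The same 6 libraries had the most fractions of exactly 1 at positions that are unmethylated in most libraries. Over the 142292 positions with a median fraction under 0.05, the number of exact 1s in a library was between 8 and 22444 (median 614). It was 15223 or more in the 6 libraries and 10518 or less in the others. Across the 95 libraries this number and the mean rescaled value of the members had a Pearson r of -0.987 and a Spearman rho of -0.96 (two-sided permutation p = 1e-05 for each, the smallest that 100000 permutations can give). The adjusted p over 3 relations was 1.5e-05. Without the 2 libraries farthest from the median count, r was -0.983, and within each of the 10 first elements of the codes it lay from -0.997 to -0.911. The same number and the mean fraction of the members had r = -0.11 and rho = -0.0901 (permutation p = 0.288 and 0.384, adjusted p = 0.288 for r), with r from -0.374 to 0.378 within first elements. The number of exact 1s and the rescaled value of a fraction of 0.5 had r = -0.955 and rho = -0.771 (permutation p = 1e-05 for each, adjusted p = 1.5e-05 for r). For that relation r was -0.942 without the 2 farthest libraries and lay from -0.987 to -0.376 within first elements. The 3 relations were chosen after the data were seen, and the mean rescaled value uses the values that selected the members. The p-values are therefore given as a description. Since the curves differ between libraries, levels and sets of members are given on both scales below.

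**Figure D1:**
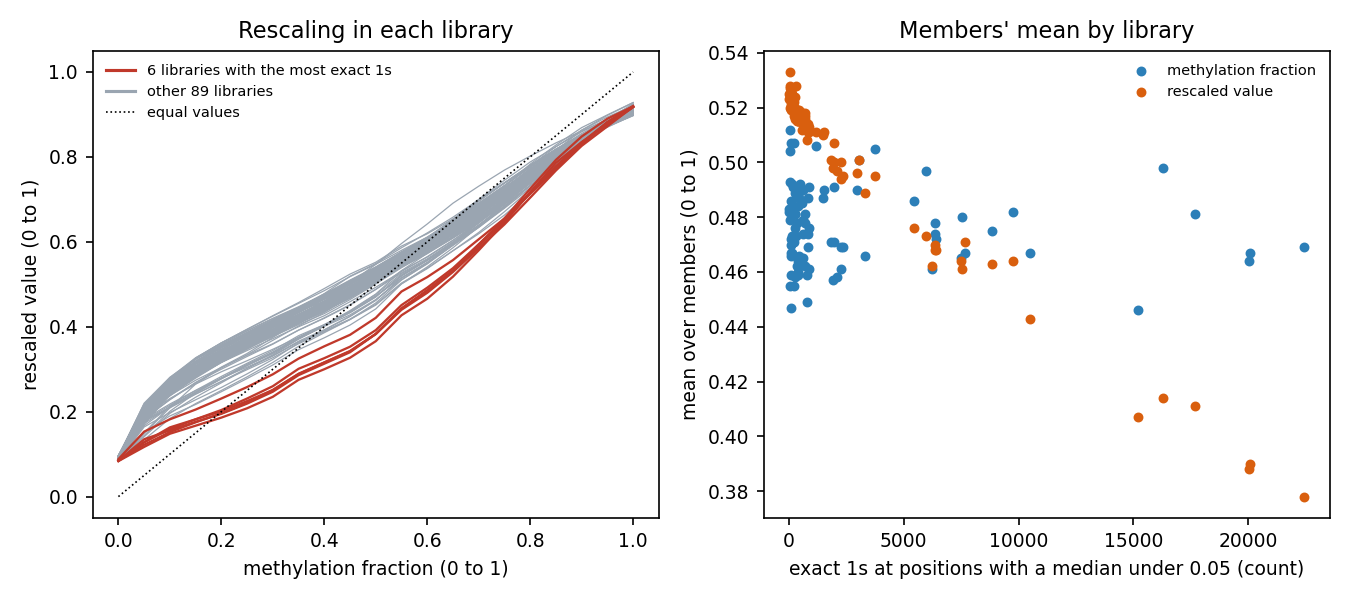
Left, rescaled value against methylation fraction, with 1 line per library for 95 libraries; the 6 libraries with the most exact 1s (red) lie below the others at middle fractions, from 0.366 to 0.421 at a fraction of 0.5. Right, mean over the members in each library (fraction in blue, rescaled value in orange) against the number of exact 1s at positions with a median fraction under 0.05; the rescaled mean is lower where that number is higher (r = -0.987) and the mean fraction shows r = -0.11.

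Most members stood for a single dog cytosine or CpG. Of the tied members, 4461 (63.1%) matched 1 listed position, 1596 matched 2, 549 matched 3, 280 matched 4 and 187 matched 5 or more. Positions listed side by side are the cytosines of both strands of a CpG, and with these joined 4937 members (69.8%) rested on 1 CpG, 1302 on 2 and 834 on 3 or more. The runs were short: among members with several positions the median span was 18 bp and the 99th percentile 53 bp. No run was given to more than 1 member, and 2 members shared a position. The members are thus nearly all separate measurements, although neighbours can lie on the same sequenced molecules.

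A middle value could arise by averaging over positions, but members that joined a low to a high position were few. Of the 2612 members with several positions, 46 (1.76%) held a position with a median fraction under 0.2 together with a position over 0.8. In 1596 (61.1%) every position had a median from 0.2 to 0.8. The rest held a position or more outside that range, so averages of middle with low or high positions were common. The median difference between the highest and the lowest position of a member was 0.17.

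Positions beside the members were often at middle levels as well. Some of these neighbours belong to other members, since 503 pairs of members lay up to 100 bp apart. Such neighbours were themselves selected for a middle level, so part of the count follows from the selection. Of the tied members, 5205 had another listed position within 100 bp. In 1929 of these (37.1%) all such neighbours had a median fraction from 0.2 to 0.8, in 715 (13.7%) all were over 0.8 and in 572 (11%) all were under 0.2. Another 1026 (19.7%) had middle and low neighbours and 796 (15.3%) middle and high ones. Among 16545 tied names with a median over 0.7 and a neighbour, 75.1% had only neighbours over 0.8 and 7.51% only neighbours from 0.2 to 0.8. Both are counts over positions of the same libraries, given without a test.

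The members varied more between libraries than names at low or high levels. The interquartile range of a member over the 95 libraries, taken on the rescaled values, had a median of 0.111 over the members, with quartiles of 0.0929 and 0.132. The same median was 0.00664 for names under 0.3 and 0.0499 for names over 0.7. On fractions the median interquartile range was 0.14 for the members, 0 for names under 0.3 and 0.07 for names over 0.7. A fraction near 0 or 1 has less room to vary and less sampling error than a middle fraction, and how much of the spread is counting error was not tested, since the depth is unknown. Spread was smaller where more positions were averaged. The median interquartile range was 0.15 in members on 1 position, 0.123 on 2, 0.116 on 3 or 4 and 0.105 on 5 or more.

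Few members stayed in the middle throughout, and few switched. Only 43 tied members (0.608%) had a fraction from 0.3 to 0.7 in every library, while 874 (12.4%) did so in at least 86 of 95. At the other end, 211 members (2.98%) had at least 5 libraries under 0.2 and at least 5 over 0.8. A stricter pattern, with at least 8 libraries under 0.12, 8 over 0.88 and 8 from 0.3 to 0.7 and at most 12 elsewhere, was met by 36 members (0.509%). Sequence variants at cytosines are known to give such levels, and genotypes were not analysed here.

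The members with the smallest spread were mostly averages of unlike positions. Of the 8 members with the smallest interquartile range on the rescaled values, 7 could be tied, and 6 of these joined a position with a median fraction under 0.2 to another over 0.8. The untied cg13238881 had the smallest range of all, 0.029 around a rescaled median of 0.438. In cg14022913 (chr16:52437213-52437221) the first of its positions had a median fraction of 0.96 and the other 0, and the mean over both had a median of 0.485 with an interquartile range of 0.025. In cg25743584 (chr9:43228727-43228771) the medians of the 3 positions were 0.97, 0 and 0.97. In most libraries these middle values are thus means of a methylated and an unmethylated cytosine. The mixture was not the same in every library: cg14022913 ran from 0.425 to 0.99, with 82 libraries from 0.3 to 0.7, and cg25743584 reached 0.973, with 6 libraries over 0.8. The low position of each ran from 0 to 1, and was at 1 in 2 libraries for cg14022913 and in 1 for cg25743584. In the repeat library 8 described below, cg14022913 had 0.96 against 0.45 in the first run. The highest value of cg25743584 did not return either: it had 0.64 in the repeat library 5 against 0.973 in the first run.

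In cg02745784 (chr2:40515596-40515608) both strands of a CpG had a median fraction of 0, with highest values of 0.9 and 1, and the strands of its neighbour had medians of 0.91 and 0.89. The member as a whole ran from 0.392 to 0.928. In cg18816595 (chr23:11835656-11835692) 3 positions had medians from 0.92 to 0.96 and the other 0, with 6 libraries over 0.8 for the member, and in cg02012043 (chr11:13253759-13253774) the medians were 0 and 0.95. In cg26465715 (chr28:13032433-13032481) the medians stepped down along the run, 0.87, 0.7 and 0.15, and this member lay from 0.437 to 0.677 in all 95 libraries. The remaining member of the 8, cg14989191 (chr6:17941219-17941235), had medians of 0.31, 0.07 and 0.09 and a median fraction of only 0.157. In the 8 tied members with the smallest spread of fractions, all 8 joined low and high positions. The added members of that list were cg01599742, cg04871364 and cg24144893.

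The members with the largest spread behaved in the opposite way, and 7 of the 8 rested on a single position. The fraction of cg07636326 (chr15:49185074) ran from 0 to 1 with quartiles of 0 and 0.87, and 25 libraries lay under 0.2 and 30 over 0.8. The fraction of cg18817970 (chr33:17543957) had quartiles of 0 and 0.805 around a median of 0.44. Its libraries covered the whole range, with 31 under 0.2, 36 from 0.3 to 0.7 and 24 over 0.8. The member cg05449164 (chr23:13641087-13641093) rested on 2 positions with medians of 0.67 and 0.64, and had 37 libraries under 0.2, 29 over 0.8 and only 6 from 0.3 to 0.7. Of this list, 3 members lay on chromosome 9 and belong to the set described below. For cg17937591 on chromosome 6 and cg05970577 on chromosome 14 the lower quartile was 0 and the upper quartile 0.79 and 0.765.

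Members were crowded in a few places. In all, 1433 tied members (20.3%) had another within 1000 bp, whereas 2169 (30.7%) were over 100000 bp from the next. By chromosome, the members' share among tied members and tied names over 0.7 ran from 18.5% on chromosome 34 to 32.8% on chromosome 14 (231 members against 473). The 8 stretches of at most 2000 bp with the most members were picked out after the values were seen, and 5 of them lie on chromosome 14. Coordinates are on CanFam3.1 and carry an uncertainty of 1 bp, since the counting base of the tables was not settled.

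The fullest stretch, chr14:20120066-20122024, held 29 members, all with a median fraction from 0.33 to 0.51. Members in it include cg22090863 at 0.33, cg04275901 at 0.44, cg13660372 at 0.5 and cg22331138 at 0.51. Averaged over the 29, the library values had a median of 0.434 with quartiles of 0.412 and 0.471, and 94 of 95 libraries lay from 0.3 to 0.7. The lowest was 0.287 in the library coded L3_A5 and the highest 0.556 in L2_A8. Over all pairs of its members the median r was 0.0639, but 2 short blocks within it moved together. On fractions, 5 members at chr14:20120066-20120158 had a median r of 0.745, and 6 at chr14:20120597-20120678 had 0.688. A further 10 members at chr14:20122267-20123011 had library means from 0.362 to 0.569, with all 95 libraries from 0.3 to 0.7.

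Library means stayed mostly at middle levels in 2 other stretches as well. A mean over many members with low r varies less than the single members do. The median interquartile range of single members was 0.14 in the stretch of 29, and 0.14 and 0.143 in these 2. Over all tied members it was 0.14 too, so the single members were no steadier than others. At chr14:6448216-6450052, 15 members with medians from 0.37 to 0.53 gave library means from 0.33 to 0.587, in all 95 libraries from 0.3 to 0.7, and a median r of 0.0512. At chr24:43601123-43602985, 12 members with medians from 0.38 to 0.63 gave library means from 0.299 to 0.642, in 94 libraries from 0.3 to 0.7, and a median r of 0.0976. At chr1:101090723-101092560, 7 members gave library means from 0.246 to 0.679 around a median of 0.424. Imprinted genes, which keep 1 parental copy methylated, are a known source of steady middle levels. RefSeq places PEG10, SGCE and MEST, imprinted in human, on dog chromosome 14, GNAS on chromosome 24 and PEG3 and PLAGL1 on chromosome 1 of the assembly UU_Cfam_GSD_1.0. Whether the stretches overlap these genes was not tested, since that assembly is another build than CanFam3.1.

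Other crowded stretches had a higher median r over all pairs and wider library means. At chr14:40276184-40276909, 11 members had library means from 0.189 to 0.741 and a median r of 0.618, and only 82 libraries lay from 0.3 to 0.7. At chr14:40316845-40318284, 14 members had library means from 0.27 to 0.743 and a median r of 0.467. RefSeq also places the HOXA genes, which set positions along the body axis, on chromosome 14, and overlap was likewise not tested. At chr9:10349863-10351332, 16 members had a median r of 0.441 and library means from 0.357 to 0.854. The highest of these, in a library coded SCE_CF_Pilot_11_S11, stood apart from the next, 0.68. That library had 9753 exact 1s. The libraries with the most exact 1s, L4_A7 (22444) and L8_A5 (20077), had means of 0.499 and 0.625 in this stretch. Why the library stood apart was not tested.

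**Figure D2:**
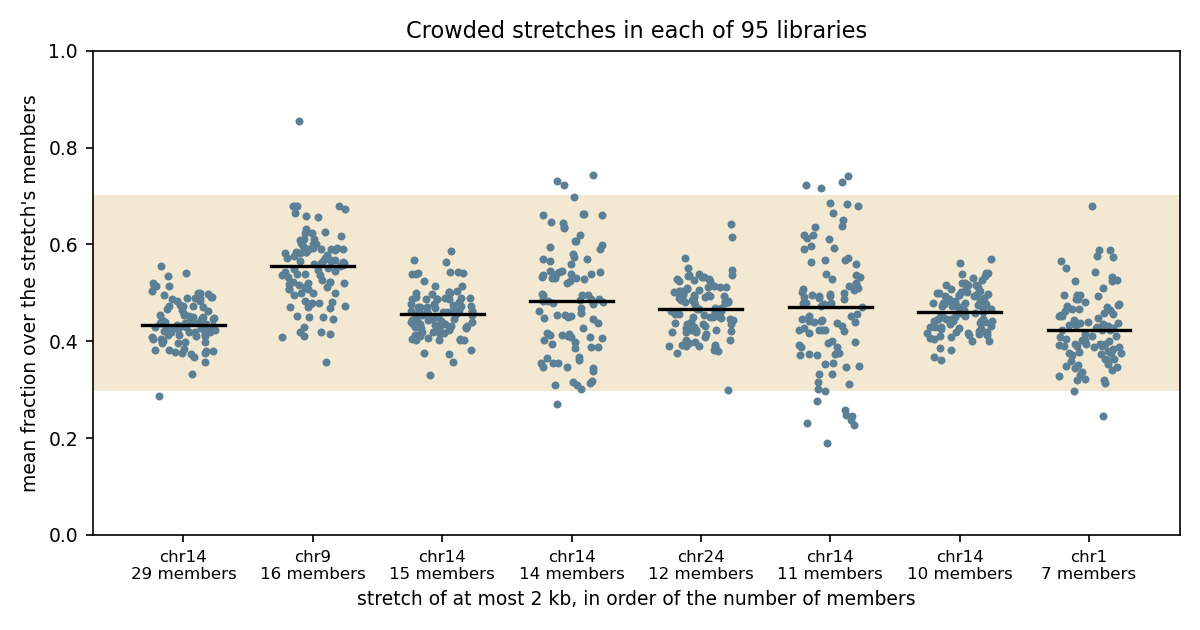
Mean fraction over the members of each crowded stretch in each of 95 libraries (points) with the median over libraries (black bar), for the 8 stretches of at most 2000 bp with the most members; the band marks 0.3 to 0.7. The stretch of 29 members lies within the band in 94 libraries, while the chromosome 14 stretch of 11 members does so in 82.

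Members close to each other tended to move together, and the effect faded with distance. Over fractions, 503 pairs of members up to 100 bp apart had a median r of 0.489, and 24.5% of them reached 0.7. Between 100 and 1000 bp the median was 0.181 over 1263 pairs, and between 1000 and 10000 bp it was 0.0833 over 2056 pairs. Pairs on different chromosomes had a median of 0.00905, with quartiles of -0.0902 and 0.111. All pairs share the same 95 libraries, and close pairs also share molecules and capture, so these values are given as a description.

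Joined at r of 0.7 or more on the rescaled values, 993 members (14%) fell into 90 sets. The largest held 535 members and the next 226, both scattered over the genome (38 and 34 chromosomes, 483 and 183 bins of 100000 bp). Of the other 88 sets, 69 lay within 5000 bp. On fractions the sets were fewer: 684 members in 68 sets, of which the largest held 434 and the next 73. The set of 434 shared 410 members with that of 535, which is 76.6% of the larger and 94.5% of the smaller. The set of 73 shared 69 members with that of 226, which is 30.5% of the larger and 94.5% of the smaller. Without the 6 libraries with the most exact 1s, an alternative chosen after the data were seen, the rescaled sets held 298 and 110 members and the sets on fractions 423 and 62. The rescaled sets shrank without those 6 libraries, but what remained came from the same sets: 298 of 298 from the set of 535 and 107 of 110 from the set of 226. On fractions, 413 of the 423 were in the set of 434 and 62 of the 62 in the set of 73.

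The leading members of the rescaled set of 535, by their median r to the rest of it, were cg18212197 (chr15:2859498-2859503, r 0.663), cg12928578 (chr20:48221008-48221026), cg13883633 (chr30:8702194), cg17890233 (chr6:11777789-11777790) and cg12724086 (chr14:5881573, r 0.654). Their median fractions ran from 0.23 for cg12724086 to 0.58 for cg18212197. Those of the set of 226 were cg13435432 (chr12:65211125-65211172, r 0.637), cg07483811 on chromosome 7, cg23413809 on chromosome 10, and cg16240368 and cg08789022 on chromosome 17 (r 0.603 for the last). Genes at these dog positions are not named here, since no annotation on CanFam3.1 was used.

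On fractions the 2 scattered sets ran against each other. The mean fraction of the set of 434 ran from 0.208 in L7_A11 to 0.664 in L7_A4, with a median of 0.323. The mean fraction of the set of 73 ran from 0.217 in L9_A4 to 0.67 in L6_A25, with a median of 0.541. Over the 95 libraries the 2 means had r = -0.792, which describes sets that were formed on these same values. On the rescaled values the means of the sets of 535 and 226 had r = -0.325. The rescaled value of a fraction of 0.5 had r = 0.64 with the rescaled mean of the set of 226, and r = 0.0786 with the mean fraction of the set of 73.

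Part of the variance of these sets lay between the second elements of the library codes. The codes hold 10 first elements and 25 second elements. The share of the variance of the mean of the set of 434 that lay between classes was 0.0703 for the first and 0.578 for the second, of which part follows from the larger number of classes. For the set of 73 these shares were 0.0183 and 0.698. The 4 libraries with the element A1 had means from 0.514 to 0.581 in the set of 434 and a median of 0.236 in the set of 73. The 6 libraries with A4 had a median of 0.569 in the set of 434, with 2 of them low at 0.236 and 0.308, and the 6 with A3 ran from 0.321 to 0.541. The 11 libraries coded SCE ran from 0.302 to 0.5. The sources used here do not say what the elements stand for. With the mean of each second element taken out, the largest set on fractions held 208 members, 200 of them from the set of 434. The set of 73 then fell apart: no set held more than 3 of its members.

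**Figure D3:**
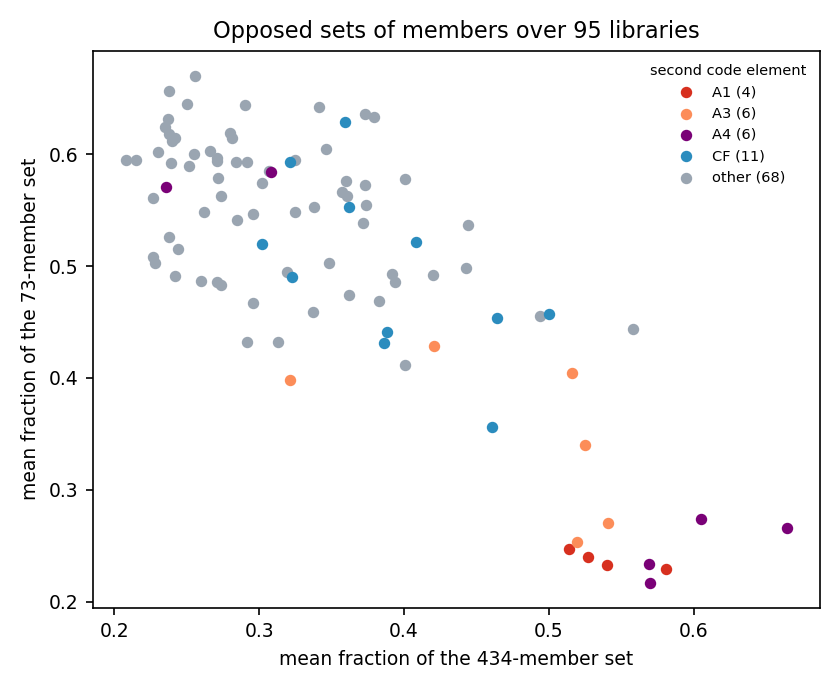
Mean fraction of the set of 73 members against that of the set of 434 members, with 1 point per library for 95 libraries, coloured by the second part of its code. The 4 libraries with A1 lie at the lower right, from 0.514 to 0.581 on the horizontal axis.

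Positions beside the sets that no member uses moved with them. Within 100 bp of the 434 members lay 716 such positions with a median fraction from 0.1 to 0.9. Their r with the mean of the set of 434 had a median of 0.678, and 706 of 716 (98.6%) were positive. Their r with the mean of the set of 73 had a median of -0.51. The 228 such positions beside the set of 73 had a median r of 0.651 with it, and 227 were positive. Of the 6566 tied members outside both sets, 54% had a positive r with the mean of the set of 434 and 46.4% with that of the set of 73. These members are outside because none had r of 0.7 or more with a member of the sets. The contrast therefore follows in part from how the sets were formed. Positions beside members outside the sets were not examined. Neighbouring positions may be read on the same molecules as the members, and pairs of members up to 100 bp apart had a median r of 0.489.

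A small part of the names outside the range that selected the members followed the sets too. Among names under 0.3 with a standard deviation over 0.03, 96 of 20440 had r of 0.7 or more with the set of 434 and 0 had r of -0.7 or less. Among such names over 0.7, 49 of 21284 had r of -0.7 or less with it and 2 had 0.7 or more. With the set of 73, 2 of the names under 0.3 had r of 0.7 or more and 29 had -0.7 or less. For names over 0.7 these counts were 59 and 0. Of the 7073 tied members, from which the sets were formed, 369 had r of 0.7 or more with the set of 434 and 22 had -0.7 or less. The members of the set of 434 themselves had a median fraction of 0.29, against 0.555 in the set of 73 and 0.5 in the other tied members. Their interquartile ranges had medians of 0.185, 0.19 and 0.135.

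The first principal component of the members, which is the direction of largest variance over libraries, held 13.3% of the variance on rescaled values and 13.8% on fractions. On rescaled values its scores had r = 0.723 with the rescaled value of a fraction of 0.5, and the second component (9.82%) had r = 0.649. On fractions the corresponding r were -0.103 and -0.00397, and the second component held 3.93%. The first component on fractions had r = 0.971 with the mean of the set of 434.

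Among the smaller sets a group of 7 members on chromosome 9 had library means spread over low, middle and high levels, with quartiles of 0.246 and 0.86 on fractions. They lay between chr9:13438998 and chr9:16471481, were the same 7 on both scales, and had a median r of 0.907. The library mean over the 7 ran from 0.125 in L1_A18 to 0.964 in L3_A14. It was under 0.25 in 24 libraries, from 0.25 to 0.75 in 37 and over 0.75 in 34. Single members went from 0 to 1: cg17347650 (chr9:14588709) had quartiles of 0.06 and 0.92 and cg17461670 (chr9:15471560) of 0.085 and 0.92. Both cg20561863 (chr9:15459262) and cg00797102 (chr9:16471481) also had libraries at 0 and at 1, as did cg01336446 (chr9:14762262).

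The other 2 members of the set, cg19716073 (chr9:13438998) and cg22093121 (chr9:15574718), rested on 2 positions each and did not go below 0.365 and 0.405. Other members within the same span did not follow: 5 more tied members lie there, with r to the mean of the set from -0.275 to 0.263. Of the 7, cg17461670 met the three-level pattern given above.

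**Figure D4:**
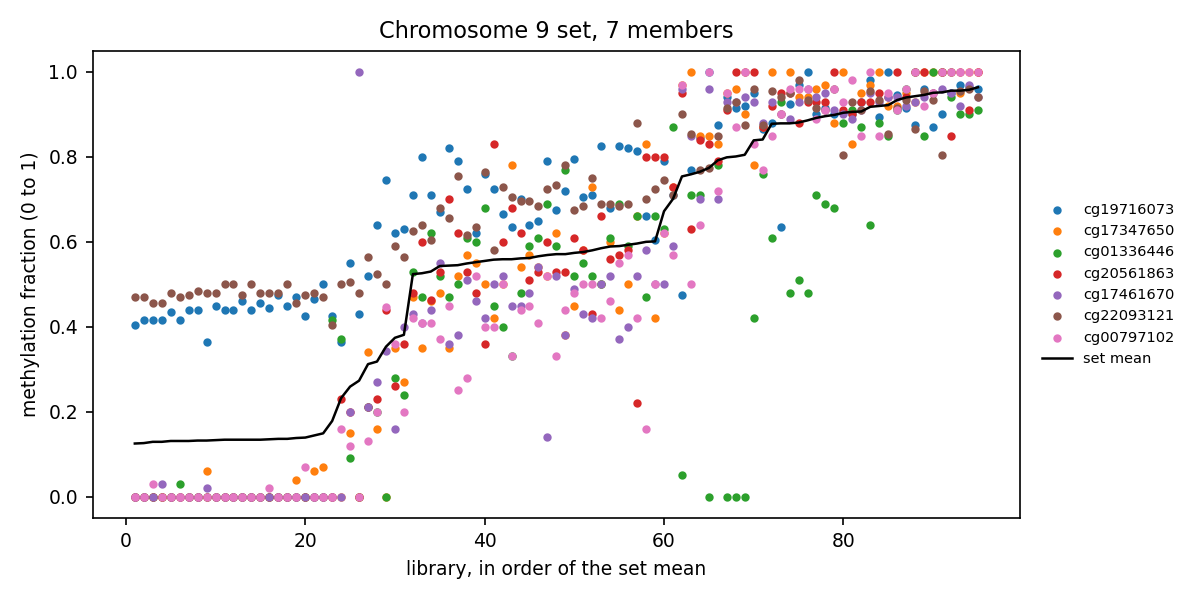
Methylation fraction of the 7 members of the chromosome 9 set (coloured points) and their mean (line) in 95 libraries, ordered by that mean. The line lies under 0.25 in 24 libraries, from 0.25 to 0.75 in 37 and over 0.75 in 34. Libraries near these bounds include L9_A5 at 0.232, L6_A6 at 0.259 and L8_A11 at 0.754.

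The remaining large sets were local. They lay at chr14:40276184-40276818 (10 members led by cg09871315), at chr14:40317348-40317590 (7, led by cg23936031), at chr14:20120597-20120678 (6, led by cg04275901), at chr14:20120066-20120158 (5, led by cg04010684) and at chr28:13810474-13812132 (6, led by cg24812837). The tightest set, with a median r of 0.94, held 5 members at chr24:43637576-43637592, of which cg10748817 could not be tied. Its library means ran from 0.317 to 0.716 on the rescaled scale. A set of 5 on 5 chromosomes, led by cg00616135, had a median r of 0.649 on rescaled values and 0.347 on fractions. The sets of 10, 7, 6 and 5 on chromosome 14 were found on fractions too, the first of them split into 6 and 4.

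The repeat table of the series holds 7 further libraries, 6 with codes of a repeat run (CHYB6) and 1 of the first run (SCE_CF_Pilot). The code numbers 1, 5, 6, 7, 8 and 10 of the repeat run also occur in the first run, which has 12 libraries. The codes match no sample title, so that equal numbers are a feature of the codes only. These repeat libraries were not used to select the members, and 7022 tied members were listed there. The median over the 6 repeat libraries was from 0.3 to 0.7 for 4581 of them, against 4634 for the median over the 95 libraries. Over members the 2 medians had r = 0.939.

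What set a library apart at the members returned in the library with the same number. The deviation of each member from its median over the 95 libraries was compared between runs. Libraries with the same number had r from 0.457 to 0.608 over the 7022 members, and each repeat library had from -0.0878 to 0.225 with the 11 others of the first run. In 6 of 6 cases the same number gave the highest r. Without the 36 members of the three-level pattern the same numbers gave 0.44 to 0.597. The median absolute difference of a member was 0.06 to 0.09 within a number and 0.08 to 0.11 otherwise. These r are over members, which are not independent replicates.

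**Figure D5:**
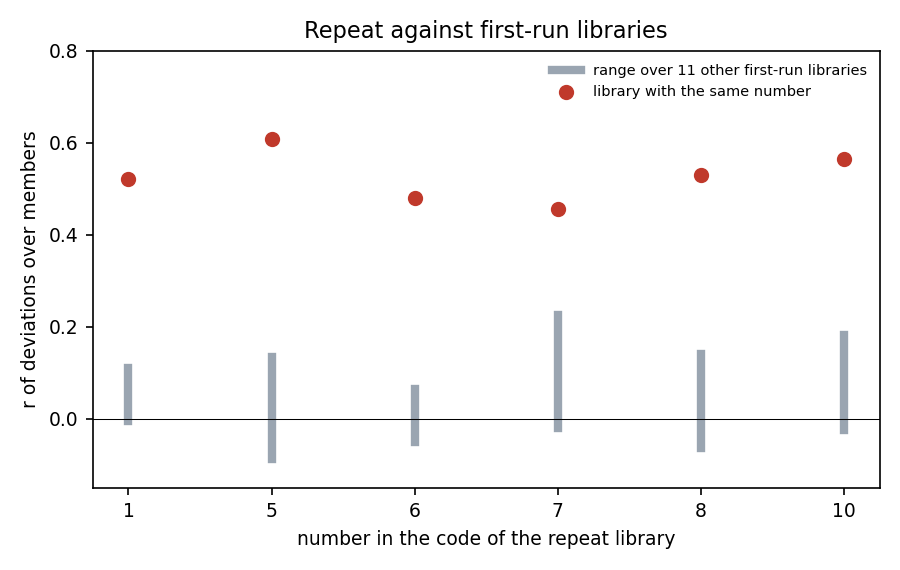
Pearson r over 7022 members between the deviations of each repeat library and those of the first-run library with the same code number (red points) or the 11 others (grey range). The red points lie from 0.457 to 0.608 and the grey ranges from -0.0878 to 0.225.

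Means over sets returned more closely than single members. The set of 434, of which 430 were listed, had means of 0.381, 0.467, 0.363, 0.471, 0.329 and 0.402 in the repeat libraries 1, 5, 6, 7, 8 and 10. The first-run values of the same numbers were 0.388, 0.462, 0.359, 0.465, 0.322 and 0.408, so that no pair differed by more than 0.0072. For the set of 73 the largest difference was 0.0111, over repeat values from 0.353 to 0.626. The chromosome 9 set had repeat means of 0.567, 0.123, 0.141, 0.928, 0.922 and 0.981 against 0.531, 0.149, 0.132, 0.958, 0.899 and 0.94. Each repeat library thus lay in the same range (under 0.25, from 0.25 to 0.75 or over 0.75) as the first-run library of its number. Means over the crowded stretches, which hold fewer members, differed by more in places. The largest difference was 0.0871 in the stretch of 29 members, 0.0369 in that of 16 on chromosome 9, 0.0453 in that of 15, 0.0842 in that of 14, 0.166 in that of 12 on chromosome 24, 0.101 in that of 11, 0.114 in that of 10 and 0.111 in that of 7 on chromosome 1. In the stretch of 29 members the repeat values ran from 0.429 to 0.488.

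Few well-known human blood markers were in the table. Of 121 such probe names in a list written from general knowledge, 13 were in the table and 3 were members. Members make up 13.1% of all cg names of the table, and 13 names are too few to set beside that share. The member cg09935388 of GFI1, a transcriptional repressor of blood cell development whose methylation is tied to smoking in human blood, had a fraction from 0.105 to 0.855 over libraries with a median of 0.5. It was tied to both strands of a CpG at chr6:56476995-56476996, with median fractions of 0.52 and 0.5. The neighbouring GFI1 names fell outside the range: cg14179389 had a rescaled median of 0.299 and cg12876356 of 0.733.

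The member cg06500161 of ABCG1, a transporter that exports cholesterol from cells, had a median fraction of 0.445 with a range from 0.14 to 0.695. Its positions at chr31:36584140-36584153 had medians of 0.52 and 0.35. In the repeat libraries its fractions were 0.305, 0.545, 0.485, 0.445, 0.45 and 0.305, against 0.375, 0.395, 0.48, 0.4, 0.38 and 0.34 in the first run. Another ABCG1 name, cg01881899, was high at a rescaled median of 0.881. The member cg17058475 of CPT1A, an enzyme that prepares fatty acids for entry into mitochondria, had a lower median fraction of 0.244. Its mean over 5 positions at chr18:49138397-49138420 had a range from 0.034 to 0.608. The 3 members thus lie on the dog chromosomes where RefSeq places GFI1 (6), ABCG1 (31) and CPT1A (18). The same match was found for all 7 names of the list that could be tied and had a gene in RefSeq.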

How the data were processed

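Whole-blood DNA of dogs was bisulfite sequenced after capture. Positions are on CanFam3.1, and the tools listed in the submitters' processing notes are Bowtie2 2.1.0, Bismark 0.14.3 and Trim Galore, with no order or role. The authors deposited each table under the name of methylation fractions, although the values of the table with human names are rescaled. All tables come without counts, so the depth and precision are unknown. How the table with human names was rescaled is not given in the sources used here.

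Members and lists were chosen with earlier results of these data known. Seed members that matched 1 position (r over 0.92) gave a curve per library, and inverted values were matched to means of neighbouring positions. The matching and the set finding were tested on simulated data. The members named are the 8 with the smallest and the 8 with the largest interquartile range, up to 5 leading members of each of the 8 largest sets (sets tied in size were all kept, 10 in all), those in the list of known names, and 3 names at each side of each edge. The stretches, the sets on fractions, the comparison of repeat libraries and the relations with exact 1s were added after the data were seen. Relations across libraries used 100000 permutations, two-sided, with Benjamini-Hochberg adjustment.

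Of the fractions behind the members, 0.947% had more than 2 decimals, 29.1% in the library coded L1_A7 and 13.9% in SCE_CF_Pilot_4_S4. Whether these were filled in is not stated, and they were kept. Library rows match no label, so no groups were formed and no samples were averaged as replicates. No probe or genome sequence was used here. Computation used Python 3.11.15, NumPy 2.4.6 and SciPy 1.17.1, and figures were drawn with matplotlib 3.10.9.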

Additional observations from a re-analysis of the deposited data

How the results depend on the processing

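The number of members, 7109, was 7211 by the mean, 4855 from 0.35 to 0.65, 7115 without L4_A7, 7108 without L1_A7 and 7120 with ch names. The number tied (6750 at a tolerance of 0.01 in 94 libraries), the median spread and the first component also moved by less than 1.5 times. The sets depended on the settings. For members in sets, the largest set and the next (993, 535 and 226), a link at 0.6 gave 2777, 2517 and 16, and a link at 0.8 gave 225, 50 and 32. Ranks within each library gave 617, 308 and 112. Leaving out the 6 libraries with the most exact 1s, chosen after the data were seen, gave 608, 298 and 110. Only the size of the next set moved by over 1.5 times with Spearman's rho (101), with the second code element taken out (7) and on fractions (73). Close sizes did not mean the same members. With the second code element taken out, the largest set held 599 members, 343 from the set of 535 and 94 from that of 226. At a link of 0.6 the set of 2517 held all of the 535 and all of the 226. For the sets on fractions (684, 434 and 73), a link at 0.6 gave 1392, 931 and 250, a link at 0.8 gave 199, 91 and 6, and taking out the second code element gave 376, 208 and 7. The link alternatives are looser or stricter by construction, and for the others the cause was not tested. No paired analysis was possible because the library rows match no label and no test between groups was made. Depth is unknown and limits what single values can show.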
